A study of Mus musculus with 6 samples.

Results

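The genes described here are the plasminogen activators urokinase (Plau) and tissue plasminogen activator (Plat), the urokinase receptor (Plaur) and 4 members of the serpin family (Serpine2, Serpinb2, Serpinf1 and Serpinh1). These 7 genes were taken by symbol from the 55335 genes of the count table, and all 7 were found. In mouse embryonic fibroblasts (MEFs) that had crossed narrow pores, Plat transcripts were 4.55-fold higher than in parental cells. Transcripts of Serpine2 and Serpinh1 were lower, with log2 fold changes of -1.0 and -1.02. Both of these falls missed the threshold in some of the alternative fits, and for Serpinh1 the groups overlapped. Plau and Plaur, the urokinase pair, did not pass the test.

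Plasminogen activators are secreted serine proteases that cut plasminogen into plasmin, a protease that degrades fibrin and, directly or through other proteases, extracellular matrix. Urokinase is held at the cell surface by its receptor, whereas tissue plasminogen activator is best known for its action on fibrin clots and is also made by fibroblasts and neurons. Serpins are named for serine protease inhibition, and most of them trap their target protease in an irreversible complex. Not every serpin is an inhibitor: Serpinf1 and Serpinh1 share the fold without inhibiting proteases.

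The study used RNA-seq to compare MEFs that had passed through a transwell membrane with 3 μm pores within 15 h (Confine) with parental MEFs (Ctrl), to look for regulators of confined migration. Both groups were wild type and carried the label of the same cell, and both were grown in Dulbecco's modified Eagle medium with 10% fetal bovine serum and antibiotics. Ctrl cells carry only the label control, and the surface they grew on is not given in the labels. For another transwell assay the study's methods describe cells seeded in serum-free medium above medium with serum, and whether this held for the sequenced cells is not given in the sources used here, so a difference in serum cannot be told apart from pore passage. Cells that stayed above the membrane were not analysed here, so a response to pore passage and a selection of the cells able to pass cannot be told apart, and neither can fewer expressing cells and less RNA per cell.

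Confine replicates 1 and 2 hold the same value for each of the 55335 genes. The identical columns entered once, which left 3 Ctrl and 2 distinct Confine libraries. They are called Ctrl 1, Ctrl 2, Ctrl 3, Confine 1/2 and Confine 3. Total counts ranged from 22287210 to 32537550 per library, and 3 counts, the floor for a detected gene, corresponded to 0.101 to 0.128 normalized CPM, that is, counts scaled to library size. Of the 10 fibroblast markers, Vim, Col1a1, Col1a2 and Fn1 were each at 655 normalized CPM or more in every library, the 10 summed to 8730 to 9590 normalized CPM in Ctrl and 15700 to 16500 in Confine, and Thy1, Dcn and Lum were at or near 0. Summed markers of other cell types were low, at 15.9 to 18.5 normalized CPM in Ctrl and 36.8 to 41.7 in Confine for 10 leukocyte genes, of which Adgre1 and Tyrobp were at 0 in every library. Of the 5 leukocyte genes tested, Cd68 (log2 fold change 2.67), Csf1r (1.45) and Cd14 (0.92) rose, Lyz2 fell (-2.64) and Fcer1g did not pass. The sum came to 0.595 to 1.36 normalized CPM in Ctrl and 2.43 to 2.70 in Confine for 8 endothelial genes, with Tie1, Emcn and Cldn5 at 0. It came to 0.415 to 0.794 and 4.02 to 8.77 for 8 epithelial genes, with Epcam, Krt18 and Cldn4 at 0. Vwf (log2 fold change 2.64) and Krt19 (4.84) were the only genes tested of these lists and made up most of both sums in Confine. Both passed the filter on low counts only through the Confine libraries, in which they are high, so their values are given as a description. The 4 mesothelial genes, nearly all of it Msln, came to 25.4 to 47.7 in Ctrl and 24.5 to 27.4 in Confine, with Lrrn4 and Wt1 at 0. The highest and the lowest summed genes of these lists were Vim and Lum, Cd14 and Adgre1, Vwf and Tie1, Krt19 and Epcam, and Msln and Lrrn4, and the part of any such cells in the members' values was not tested.

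The activators came first. Plat lies on the plus strand of chromosome 8 from 22757727 to 22782844 and Plau on the plus strand of chromosome 14 from 20836660 to 20843385 (GRCm38). Both encode trypsin-like proteases, and their transcripts are most easily compared around the codon of the active-site serine. The stretch of 45 bases is shown because it lies in the catalytic domain that defines both genes and shows how far the transcripts of this related pair can be told apart by their letters. Capitals mark the 17 bases that differ, and 28 are the same. In the GENCODE M21 transcript Plat-201 it spans bases 1614 to 1658, with the serine codon at 1635 to 1637, and in Plau-201 bases 1216 to 1260, with the serine codon at 1237 to 1239.
Plat: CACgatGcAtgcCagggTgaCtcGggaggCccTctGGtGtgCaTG
Plau: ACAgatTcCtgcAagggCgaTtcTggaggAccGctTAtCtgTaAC
Over their whole transcripts, the longest run of letters common to both was 14 bases, and neither shared 100 bases or more at 95% identity with a transcript of any other gene.

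Plat had 375, 410 and 318 counts in Ctrl 1, 2 and 3, and 1762 and 1708 in Confine 1/2 and Confine 3. In normalized CPM, Ctrl held 13.0, 15.5 and 13.5 of it and Confine 59.5 and 67.8. Both Confine libraries lay far above all Ctrl libraries, and the libraries of each group lay close together. The means were 14.0 ± 1.33 CPM (SD, n = 3) in Ctrl and 63.7 ± 5.86 CPM (SD, n = 2) in Confine. This is a log2 fold change of 2.19 (standard error 0.18, 95% interval 1.80 to 2.57), with a Benjamini-Hochberg adjusted p of 9.16e-08 over the 15881 genes tested with edgeR. Ranked by log2 fold change from the top, Plat stood at place 417 of the 15881. It was the only member that also passed the study's cutoff of 1.5 on the log2 fold change, which 4.89% of tested genes passed upwards and 3.11% downwards. For a single gene, 3 libraries against 2 cannot give an exact two-sided permutation p below 0.1. Plat reached this value, and so did Plau and Serpinb2, so it does not set Plat apart.

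Plau had 181, 136 and 142 counts in Ctrl and 202 and 216 in Confine, that is 6.25, 5.14 and 6.04 normalized CPM against 6.82 and 8.58. Both Confine libraries were above the Ctrl libraries, but Confine 1/2 exceeded Ctrl 1 only narrowly. The means were 5.81 ± 0.591 CPM (SD, n = 3) and 7.70 ± 1.24 CPM (SD, n = 2), with a log2 fold change of 0.40 (standard error 0.24, edgeR adjusted p = 0.254). The 95% interval of -0.10 to 0.91 leaves room for no change and for a rise well short of that of Plat.

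Taken as a pair, the activators shifted in their proportion to each other. Plat made up 67.4%, 75.1% and 69.1% of the summed Plat and Plau counts in Ctrl 1, 2 and 3. In Confine 1/2 and Confine 3 it made up 89.7% and 88.8%. The exact binomial 95% intervals reached up to 78.7% in Ctrl and began at 87.3% in Confine, so the groups did not meet, and these intervals cover counting error only. These shares are of counts and not of molecules, since the annotated lengths differ. Per kilobase of summed exon length, the level of Plat was 0.786, 1.14 and 0.849 times that of Plau in Ctrl and 3.31 and 3.00 times in Confine. The summed exon length of Plat is 6241 bases against 2525 for its coding transcript. Per kilobase of the coding transcripts, the level of Plat was 1.92, 2.80 and 2.08 times that of Plau in Ctrl and 8.09 and 7.33 times in Confine, so which activator was higher in Ctrl depended on the length used, whereas Plat was the higher in Confine with either.

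Plaur encodes the glycolipid-anchored receptor that gathers urokinase at the cell surface, and it lies on the plus strand of chromosome 7 from 24462484 to 24475968. It had 431, 267 and 240 counts in Ctrl and 461 and 329 in Confine. In normalized CPM, Ctrl held 14.9, 10.1 and 10.2 and Confine 15.6 and 13.1. Ctrl 1 stood between both Confine libraries, so the groups overlapped. The log2 fold change was 0.29 (standard error 0.23, 95% interval -0.19 to 0.76, edgeR adjusted p = 0.404), with means of 11.7 ± 2.74 CPM (SD, n = 3) and 14.3 ± 1.78 CPM (SD, n = 2).

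**Figure D1:**
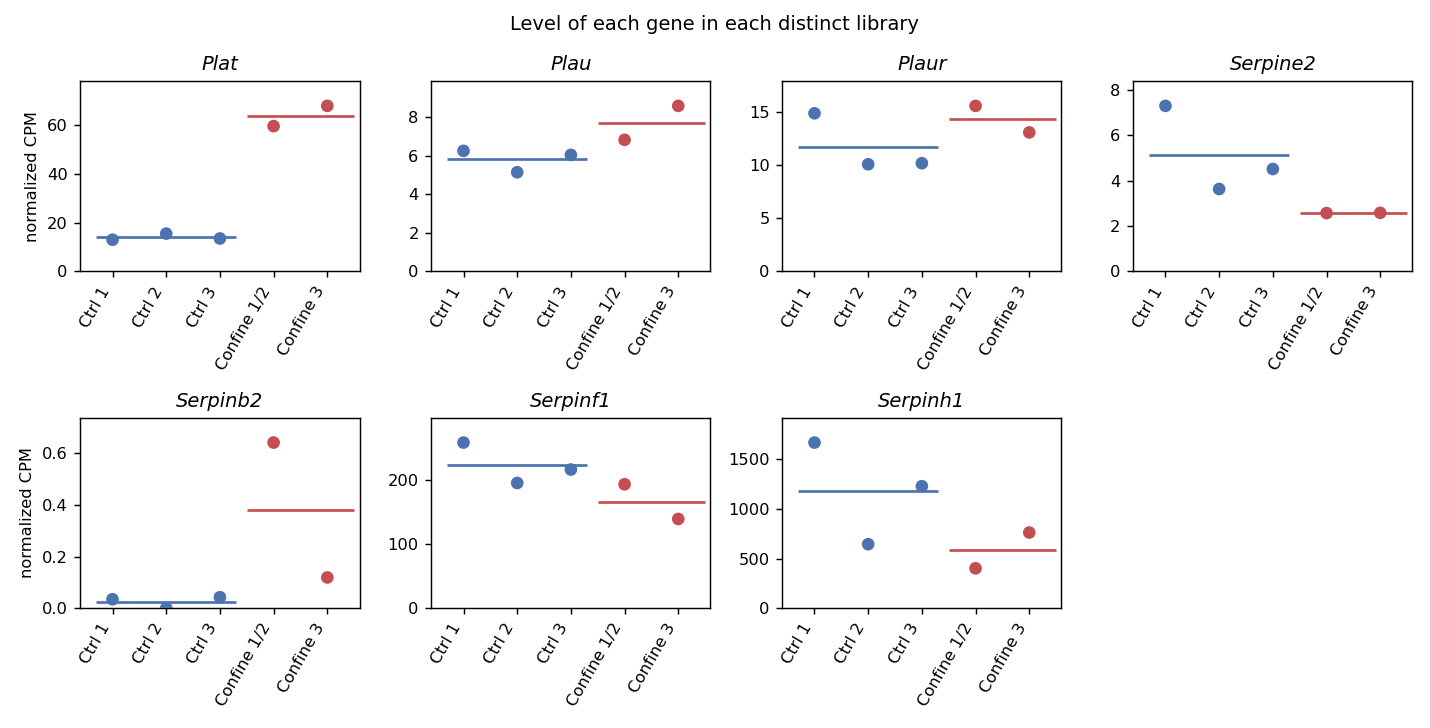
Normalized CPM of each member (vertical axes, each from 0) in the 3 Ctrl libraries (blue) and the 2 distinct Confine libraries (red), with a line at each group's mean. Plat was at 59.5 and 67.8 in Confine against 15.5 at most in Ctrl, while Plaur and Serpinh1 overlapped between the groups.

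Serpine2, also called protease nexin-1, is an inhibitor of thrombin, urokinase and tissue plasminogen activator, on chromosome 1, minus strand, 79794197 to 79861180. It had 211, 96 and 106 counts in Ctrl and 76 and 65 in Confine, at 7.29, 3.63 and 4.51 normalized CPM against 2.57 and 2.58. The Confine libraries were nearly equal and below all Ctrl libraries, among which Ctrl 1 held about 2.01 times the level of Ctrl 2. The means were 5.14 ± 1.91 CPM (SD, n = 3) and 2.57 ± 0.0093 CPM (SD, n = 2), and the log2 fold change was -1.0 (standard error 0.32, 95% interval -1.68 to -0.32, edgeR adjusted p = 0.0317). This call needed Ctrl 1, without which the log2 fold change was -0.66 and the edgeR adjusted p 0.228, and without Confine 1/2 or Confine 3 the edgeR adjusted p was 0.153 and 0.157 at nearly the same fold change. With limma-voom in place of edgeR the adjusted p was 0.0539.

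Serpinb2, plasminogen activator inhibitor type 2, is an inhibitor of urokinase that stays largely inside cells, and it lies on the plus strand of chromosome 1 from 107511423 to 107535478. It was almost undetected, with 1, 0 and 1 counts in Ctrl and 19 and 3 in Confine, so most of its counts came from Confine 1/2. This is 0.0345, 0 and 0.0425 normalized CPM for Ctrl, against 0.642 and 0.119 for Confine. The gene did not pass the filter on low counts and was the only member left out of the main test. The pooled 22 counts of Confine against 2 of Ctrl, scaled to library size adjusted by TMM, gave a ratio of 15.8. Its exact counting interval of 3.9 to 139 takes no account of the spread between libraries. Without the filter the log2 fold change was 3.69 (edgeR adjusted p = 0.0194). Without Confine 3 the gene passed the filter only through Confine 1/2, the library in which it is high, so no test of that setting is given. Serpinb2 shares 291 bases of exon with Serpinb10 on the same strand, which had 0 counts in every library, and no exon of any other member overlaps that of another annotated gene.

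Serpinh1, also called HSP47, is a collagen chaperone of the endoplasmic reticulum that accompanies procollagen folding, on chromosome 7, minus strand, 99345376 to 99353239. It was the most abundant member, with 48423, 17064 and 28939 counts in Ctrl and 11895 and 19227 in Confine. Ctrl libraries stood at 1670, 645 and 1230 normalized CPM, Confine libraries at 402 and 763. Confine 3 stood above Ctrl 2, so the groups overlapped, and the Ctrl libraries themselves spread over 2.59 times. The log2 fold change was -1.02 (standard error 0.31, 95% interval -1.68 to -0.36, edgeR adjusted p = 0.0238), with means of 1180 ± 516 CPM (SD, n = 3) and 583 ± 256 CPM (SD, n = 2). The call was lost without Ctrl 1 (log2 fold change -0.69, edgeR adjusted p = 0.0856), without Confine 1/2 (-0.63, edgeR adjusted p = 0.291) and with DESeq2 (-1.04, adjusted p = 0.201). Of the collagen genes in the fibroblast list, Col1a1 rose by 0.66 and Col3a1 by 2.21 on the log2 scale, and Col1a2 had a log2 fold change of 0.24 that did not pass.

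Serpinf1, pigment epithelium-derived factor, is a secreted serpin known as an inhibitor of blood vessel growth, on chromosome 11, minus strand, 75409769 to 75422701. It had 7463, 5171 and 5070 counts in Ctrl and 5699 and 3497 in Confine. This is 258, 195 and 216 normalized CPM for Ctrl, against 193 and 139 for Confine. Both Confine libraries were below the Ctrl libraries, but Confine 1/2 was close to Ctrl 2, and the log2 fold change came to -0.43 (standard error 0.20, 95% interval -0.85 to -0.01). The means were 223 ± 31.8 CPM (SD, n = 3) and 166 ± 38 CPM (SD, n = 2), and the unadjusted p of 0.0447 became 0.135 after edgeR's Benjamini-Hochberg adjustment. When libraries were scaled by size alone, without TMM factors, which moved the median log2 fold change of all tested genes from -0.002 to -0.21, the log2 fold change was -0.64 and the edgeR adjusted p 0.0201.

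Of the 6 members tested, 3 passed at an adjusted p under 0.05, 1 higher and 2 lower in Confine, and 3 did not. Among all 15881 tested genes 23.0% passed, 12.8% higher and 10.2% lower. For the tested members the log2 fold change had a median of -0.07, and over all tested genes of -0.002. In 4 of the 6 tested members the libraries of both groups did not overlap, as in 49.5% of all tested genes. Among the Ctrl libraries, Ctrl 1 was the highest for Plau, Plaur, Serpine2, Serpinf1 and Serpinh1, and Ctrl 2 for Plat. Over all tested genes Ctrl 1 was the highest in 27.9%, and genes above 1 CPM in every Ctrl library had a median ratio of 1.34 between the highest and lowest Ctrl library, which Plaur at 1.48, Serpine2 at 2.01 and Serpinh1 at 2.59 exceeded.

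**Figure D2:**
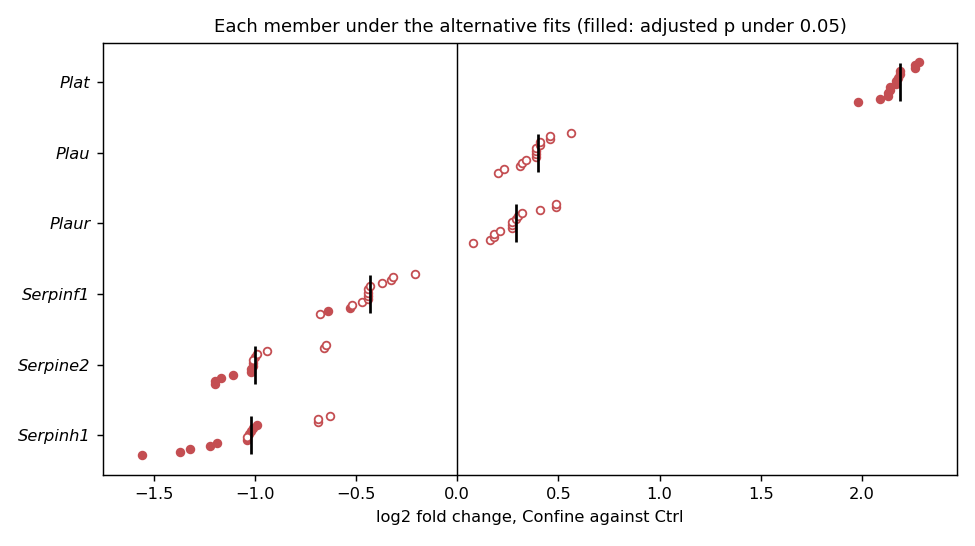
Log2 fold change of each tested member (horizontal axis) under each other fit of the same counts, 1 point per fit, with filled points at an adjusted p under 0.05 and a vertical bar at the value reported. Plat passed in every fit shown and no member crossed 0, whereas Serpine2 and Serpinh1 had open points, some towards 0 and some at about the reported value.

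Levels of different genes were compared per kilobase of summed exon length. In Ctrl the order from the top was Serpinh1 at 484 CPM per kb, Serpinf1 at 94.5, Plaur at 4.48, Plau at 2.45, Plat at 2.24, Serpine2 at 0.620 and Serpinb2 at 0.0109. Plau (2.17 to 2.64 CPM per kb) and Plat (2.08 to 2.48) overlapped between Ctrl libraries, and every other pair of neighbours in this order was separate. In Confine the order was Serpinh1 at 238 CPM per kb, Serpinf1 at 70.2, Plat at 10.2, Plaur at 5.47, Plau at 3.25, Serpine2 at 0.311 and Serpinb2 at 0.162. Plat was below Plaur in Ctrl and above it in Confine, with summed exon or coding transcript lengths alike. Per kilobase of coding transcript, Plat stood above Plau in Ctrl as well, and Plau (2.19 to 2.67) overlapped with Serpine2 (1.64 to 3.30). All neighbours in the Confine order were separate between libraries, including Serpine2 (0.310 and 0.311) and Serpinb2 (0.273 and 0.0507).

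A ratio of the activators to the inhibitors among the members sums Plau and Plat, and divides by the sum of Serpine2 and Serpinb2, per kilobase of summed exon length. It was 5.27, 10.6 and 8.39 in Ctrl 1, 2 and 3 and 21.3 and 40.0 in Confine 1/2 and Confine 3. The groups were separate, with means of 8.10 ± 2.69 (SD, n = 3) and 30.7 ± 13.2 (SD, n = 2) and a fold of 3.75 between geometric means. Its members were chosen with results known, so it is given as a description with no test. Per kilobase of coding transcript, a scale chosen after seeing the data, it was 2.35, 5.07 and 3.85 for Ctrl against 17.9 and 24.9 for Confine, a fold of 5.88. The annotated lengths of Serpine2 differ widely, at 8287 bases of summed exon against 2210 for its coding transcript, so the ratio depends on the length used. Serpine2 was the larger term of the divisor in every library, although in Confine 1/2 Serpinb2 at 0.273 CPM per kb of exon came close to Serpine2 at 0.310. The divisor takes in only these 2 inhibitors and not all inhibitors of the activators, so the ratio is not a measure of the balance of the whole system.

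**Figure D3:**
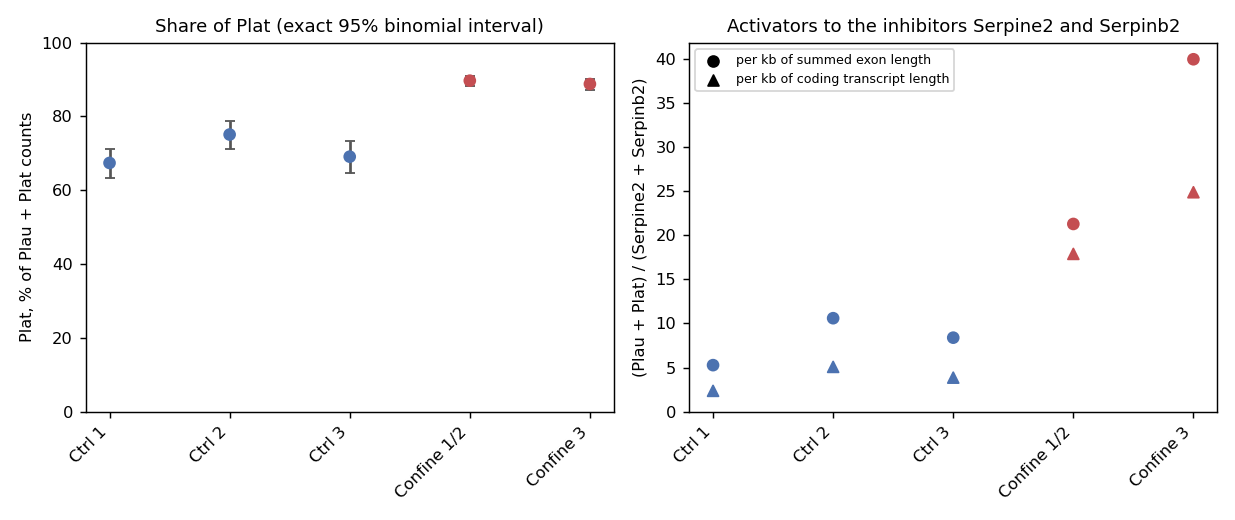
Left, Plat as a percentage of the summed Plat and Plau counts in each library, with exact 95% binomial intervals; right, the ratio of summed Plau and Plat to summed Serpine2 and Serpinb2 per kilobase of summed exon length (circles) or of coding transcript length (triangles). Confine libraries (red) lay above all Ctrl libraries (blue) in both panels, at 89.7% and 88.8% on the left.

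The substrate and its docking sites followed. Plg, which encodes plasminogen, a protein made mainly by the liver, had 0 counts in every library, below the floor of 3 counts. Of 5 genes for plasminogen and its surface receptors, 4 were tested, 3 rose and 1, Plgrkt, did not pass, where 12.8% of all tested genes were higher in Confine and 10.2% lower. Eno1, a glycolytic enzyme that also binds plasminogen at the cell surface, rose from 1990 ± 322 (SD, n = 3) to 6830 ± 325 normalized CPM (SD, n = 2; log2 fold change 1.78, edgeR adjusted p = 1.27e-06), but 4 other genes carry near-identical copies of its transcript. Anxa2 rose by 1.27 and its partner S100a10, the plasminogen-binding subunit of their complex, by 0.61 on the log2 scale.

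Of 12 genes for uptake and adhesion partners of the urokinase receptor, 11 were tested, 4 rose, none fell at an adjusted p under 0.05 and 7 did not pass, beside 12.8% and 10.2% of all tested genes. Itgb3, the integrin subunit that pairs with Itgav to bind vitronectin and the urokinase receptor, had 58, 101 and 41 counts in Ctrl and 471 and 657 in Confine. Its level rose 8.29-fold (log2 fold change 3.05, standard error 0.30, edgeR adjusted p = 7.0e-07), and both Confine libraries lay above all Ctrl libraries. Vldlr and Lrp1, endocytic receptors that clear protease and serpin complexes, rose by 1.60 and 0.77 on the log2 scale. Itgav rose by 0.85, and it shares sequence with the pseudogene Gm13684.

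Of 6 other inhibitors of the system 3 were tested, of which Serping1 rose and 2 did not pass. The shares over all tested genes were 12.8% higher in Confine and 10.2% lower. Serping1, the C1 inhibitor, went from 9, 2 and 11 counts in Ctrl to 85 and 35 in Confine (log2 fold change 2.91, standard error 0.56, edgeR adjusted p = 0.000829). Of 16 pericellular protease and coagulation genes 8 were tested, 2 rose and 6 did not pass. Of all tested genes, 12.8% were higher in Confine and 23.0% passed in either direction. Those of the list that rose were the protein C receptor Procr, by 1.49, and tissue factor F3, by 0.95 on the log2 scale. Of 63 further serpin genes 26 had 0 counts in every library and 17 were tested, of which 4 rose, 3 fell and 10 did not pass, beside the same 12.8% higher and 10.2% lower over all tested genes. Those past the cutoff of 1.5 were Serping1, Serpina3n (log2 fold change 1.75, edgeR adjusted p = 0.0182) and Serpinb1b (log2 fold change 2.70, edgeR adjusted p = 0.00744), and Serpinb1b had 5, 1 and 3 counts in Ctrl and 23 and 19 in Confine. Serpinb1b and Serping1 passed the filter on low counts only through the Confine libraries, in which they are high, so their calls are given as a description. These lists overlap, since Serping1 also belongs to the serpins.

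**Figure D4:**
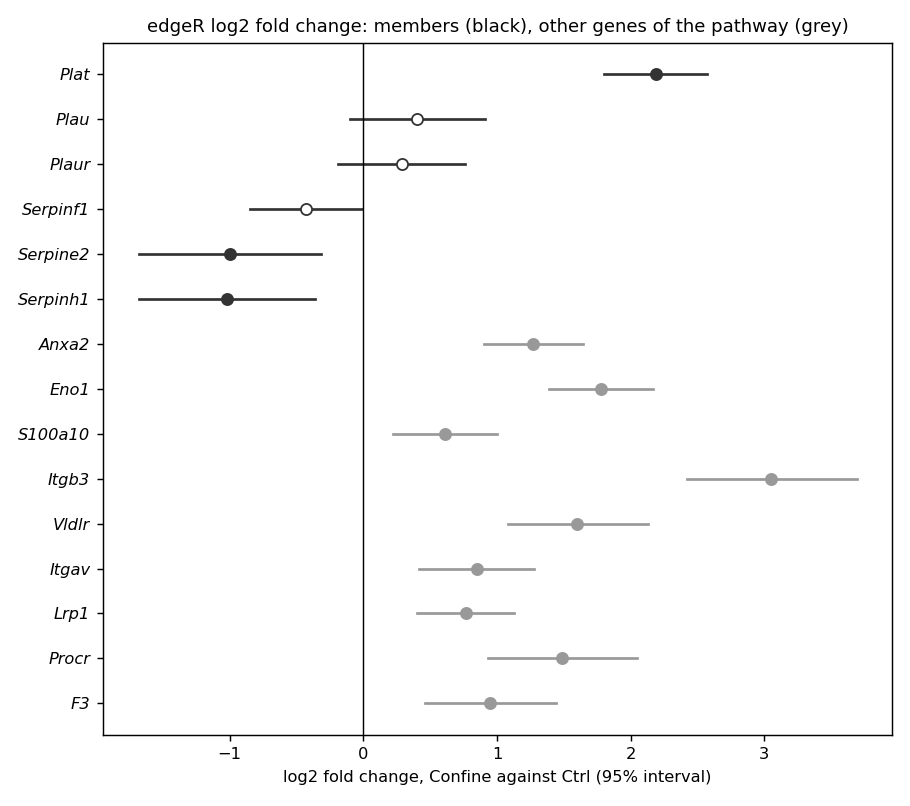
Log2 fold change of Confine against Ctrl with its 95% interval for the 6 members tested (black, open where the adjusted p was 0.05 or more) and for the genes of the pathway lists, other than the remaining serpins, that rose (grey). Plat at 2.19 stood beside Itgb3 at 3.05 and Eno1 at 1.78, with Serpine2 and Serpinh1 at -1.0 and -1.02.

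For the members that fell, the upstream sequence is shown so that the genes can be seen beside each other. The windows run from 250 to 51 bases before the RefSeq transcript start (GRCm38.p6), read in the direction of the gene. The Serpine2 window lies inside the gene span given above, so it precedes this RefSeq start and not the outermost annotated start of the gene. In the Serpine2 window, chr1:79858716-79858915, capitals mark a GC box (GGGCGG), and in the Serpinh1 window, chr7:99353290-99353489, they mark the core of the hypoxia response element (ACGTG, here on the opposite strand).
Serpine2: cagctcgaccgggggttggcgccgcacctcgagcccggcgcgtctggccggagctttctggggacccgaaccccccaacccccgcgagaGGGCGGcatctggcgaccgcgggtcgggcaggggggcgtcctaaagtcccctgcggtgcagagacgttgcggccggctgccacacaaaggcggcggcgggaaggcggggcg
Serpinh1: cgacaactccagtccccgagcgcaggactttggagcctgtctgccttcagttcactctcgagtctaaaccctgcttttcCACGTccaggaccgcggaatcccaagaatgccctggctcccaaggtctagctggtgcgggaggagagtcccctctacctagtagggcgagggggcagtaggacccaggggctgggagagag
The Serpine2 window is 75.5% G and C and the Serpinh1 window 61.5%. The motifs searched on both strands were GGGCGG, which 24.6% of 32851 windows of this length held, ACGTG (12.9%), the AP-1 site TGANTCA (5.57%) and the heat shock pair GAANNTTC (5.17%). Among the 5 members with a window, TGANTCA was found in those of Plaur and Serpinb2, ACGTG in those of Serpinf1 and Serpinh1 and GGGCGG in those of Serpine2 and Plaur. GAANNTTC was found in none of the 5, and a match or its absence describes these letters only.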

How the data were processed

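Total RNA of MEFs was poly(A)-selected and made into dUTP libraries, which keep the strand. The authors deposited raw read counts per gene. The submitters' processing notes name Trim Galore 0.6.10, HISAT2 2.1.0, SAMtools 1.5, featureCounts and mm10, whereas the annotation and the strand setting of the counting are not given in the sources used here, and both can shift reads among genes that overlap or share sequence. A line of sample classes was left out, and columns not used numbered 0. Gene names, positions and lengths come from GENCODE M21, which matched 54587 of 55335 identifiers with their version and 55154 without it.

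The 15881 genes left by filterByExpr were scaled by TMM, and edgeR 4.0.16 (R 4.3.3) compared the groups by its quasi-likelihood test, with Benjamini-Hochberg adjustment. Normalized CPM use TMM library sizes, and the standard error is the absolute log2 fold change over the square root of F. The labels do not say that replicates were separate cultures, so p-values measure only the spread between these samples. Permutation tests were exact and two-sided on log2(CPM + 1), by listing every split of the libraries in Python 3.11.15. Exact binomial intervals used scipy 1.17.1. Copies were searched with blastn 2.17.0. Promoters are RefSeq windows, matched for 5 of 7 members. Where a gene has more than 1 start, the motif was the same in each window.

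The members and lists were chosen with earlier results of these data known. A gene of these lists is not reported here and was left out of their counts. The text names every member, Plg, genes of the pathway lists that passed at 0.05 with a log2 fold change beyond 1.5 in size, the highest and lowest marker of each list, and the 3 genes nearest in pattern to Plau and to Plaur. Other listed genes that rose or fell, Plgrkt and the further markers given, were named after their values were seen. On simulated counts for 15479 genes, 200 were changed by 2 on the log2 scale in Confine against Ctrl. The test found 90% of those, and 5.8% of what it called had not been changed. Smaller changes, such as those of Serpine2 and Serpinh1, were not simulated, nor was a share of changed genes as large as that called here. Alternatives were DESeq2 1.42.0, limma-voom (limma 3.58.1), other normalizations and filters, leaving out each library, the replicate block and counting the identical columns separately. Reads carry no molecular identifiers and are not independent molecules, so floors and intervals hold for counting error alone.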

Additional observations from a re-analysis of the deposited data

How the results depend on the processing

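No member's log2 fold change turned its sign under any of the alternatives. Of all values recomputed, 101 kept their direction and side of the threshold or stayed within the spread of replicates or 1.5 times a count, 9 were weaker, 2 stronger and 9 moved. Plat passed in every fit, and Plau and Plaur in none. Serpine2 missed the threshold with limma-voom at -0.94 and with a replicate block that gives the repeated column the number 2 at -0.65. Serpinh1 missed it with DESeq2 at -1.04 and with that block at -0.69. Serpinf1 passed with library size alone at -0.64 and with the block that gives the repeated column the number 1 at -0.53. The cause of these changes was not tested.

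Leaving out 1 library at a time gave log2 fold changes from 2.09 to 2.28 for Plat, from 0.23 to 0.56 for Plau, from 0.16 to 0.49 for Plaur, from -1.20 to -0.66 for Serpine2, from -0.68 to -0.21 for Serpinf1 and from -1.56 to -0.63 for Serpinh1. Between 1 and 3 members and between 2054 and 4426 of all tested genes then passed, with 1 member left without Ctrl 1 or without Confine 1/2 and the fewest genes without Confine 3. The log2 fold of the activator to inhibitor ratio, Confine against Ctrl, ranged from 1.45 to 2.36. Leaving out a Confine library leaves 1, which is assumed to vary like the Ctrl libraries.

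With the cutoff of 1.5 added, 1 member and 1271 of all tested genes passed in place of 3 and 3654. The replicate numbers are not shown to pair the libraries, as only 2 pairs exist and their deviations correlated across genes at -0.09 (number 2) or 0.08 (number 1). The replicate block gave 1 member and 2528 tested genes with number 2, and 4 members and 4933 tested genes with number 1, and its fit has 1 residual degree of freedom. Library size alone gave 1444 higher and 2805 lower calls against 2035 and 1619 with TMM. Counting the identical columns as separate samples gave 5146 calls. The log2 fold of the activator to inhibitor ratio was 1.91, and 2.60 with raw counts and 2.56 per kilobase of coding transcript, the latter chosen after seeing the data. Depth limits Serpinb2, whose Ctrl libraries held 0 or 1 counts, under the floor of 3.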

Other observations

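The genes nearest in pattern to Plau, by the root mean square difference of centred log2 CPM over the 5 distinct libraries and among 10457 genes, were 2610005L07Rik (0.028), Camk2g (0.035) and Csrp1 (0.038). Those nearest to Plaur were Armc7 (0.065), Creld2 (0.080) and C1ra (0.085). None of these 6 genes had an edgeR adjusted p under 0.05, their adjusted values running from 0.11 to 0.442, which their choice by likeness to Plau and Plaur over the same libraries largely fixes.

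The serpins that fell among those outside the members were Serpina3g (log2 fold change -1.04), Serpinb1a (-0.71) and Serpinb9 (-1.35). Serpinb9, an inhibitor of granzyme B, had 289, 203 and 233 counts in Ctrl and 91 and 104 in Confine, and all Confine values were below all Ctrl values. Serpina3g shares long near-identical stretches with Serpina3f, Serpina3h and Serpina3i, so its counts could be split between these genes, and Serpina3i rose (log2 fold change 0.85, edgeR adjusted p = 0.0129).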
